A study of Mus musculus with 2 samples.

Results

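The Hox genes of the mouse uterus were examined across its cell compartments. Every gene whose symbol was Hox, a cluster letter from a to d and a number, with nothing after it, was taken from the deposited matrices, so that antisense and host transcripts stayed out. The rule found 39 members among 19070 measured genes, 11 of the Hoxa, 10 of the Hoxb, 9 of the Hoxc and 9 of the Hoxd cluster. The study asked what stromal Erbb3, which encodes a growth factor receptor related to the EGF receptor, does while uterine glands take shape. Endometrium (about 25 mg) was taken from females on day 3 of pregnancy at 9 AM, fixed for 16 h and then dissociated, and RNA was counted cell by cell with a probe assay (10x Genomics Flex) in which paired DNA probes anneal to transcripts in fixed cells. There was 1 library from Erbb3 f/f mice, the floxed control, and 1 library from Erbb3 d/d mice, in which the series describes a deletion of Erbb3 in the stroma. The Cre driver, the age of the mice and the number of mice behind each library were not given in the sources used here. With 1 library per genotype no test was possible, and a difference between them is a difference between 2 preparations.

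Hox genes encode homeodomain transcription factors that lie in clusters, and their order along a cluster follows the head to tail order in which they are expressed in the embryo. Low-numbered (anterior) members act towards the head and high-numbered (posterior) members towards the tail, and members with the same number in different clusters are paralogs that often act together. Along the Mullerian duct, which forms the oviduct, uterus and upper vagina, posterior Hoxa genes mark successive segments. Hoxa10 and Hoxa11 are required in the adult uterine stroma for implantation and for decidualization, and joint loss of posterior Hoxa and Hoxd genes impairs uterine glands.

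Depth differed between the libraries, with 5783 barcodes and 6819591 UMIs (unique molecular identifiers, each counted as 1 captured molecule) for f/f and 2125 barcodes and 2866862 UMIs for d/d. Of these, 5503 and 1830 barcodes with at least 200 genes and at most 10% mitochondrial UMIs were used, with medians of 809 and 764.5 UMIs. Cells were placed in classes by marker genes, and 74.3% of the f/f and 68.7% of the d/d barcodes were placed. The f/f and d/d libraries gave 2201 and 774 epithelial, 1419 and 323 stromal, 158 and 47 endothelial, 133 and 41 mesothelial, 111 and 52 myeloid and 54 and 14 smooth muscle or pericyte barcodes. A class needed 60% of a barcode's marker UMIs, counted without collagens for classes other than stromal. By that share, 614 f/f and 236 d/d barcodes lay between 60 and 70%, with 325 and 118 just below. Stromal cells held a median of 7 stromal marker UMIs and epithelial cells 4 of their own, each with a median of 0 from the other list, while mesothelial cells also held a median of 3 stromal marker UMIs. All stromal, epithelial and mesothelial markers were detected in both libraries, while 1 endothelial (Mmrn1), 1 myeloid (Cd163) and 3 muscle or pericyte markers were at 0 in d/d. The median mitochondrial share of stromal cells was 1.16% (f/f) and 2.59% (d/d). Erbb3 itself had 20 stromal UMIs in f/f (14.6 CPM, UMIs per 1000000 UMIs of the class, 95% interval 8.90 to 22.5) and 2 in d/d (7.19 CPM, 0.871 to 26.0). In the epithelium it had 183 UMIs in f/f (76.5 CPM, 65.8 to 88.4) and 35 in d/d (46.3 CPM, 32.3 to 64.5). The 2 stromal intervals overlapped, whereas the 2 epithelial ones did not. The position of the Erbb3 probes relative to the deleted part is not given, so these counts check the labels only weakly. The libraries shared 0 full barcodes.

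Of the 39 Hox genes, 21 reached 50 UMIs over both libraries and are described by value (6 Hoxa, 7 Hoxb, 2 Hoxc and 6 Hoxd), while the other 18 had 0 to 45 UMIs. In the Hoxb cluster the counts stopped sharply between neighbours. Hoxb8 had 2194 (f/f) and 475 (d/d) UMIs, whereas Hoxb9 had 13 and 5, Hoxb13 had 2 and 0, and Hoxb1, at the other end, had 1 and 2. The Hoxd cluster gave 0 to 2 UMIs in each library for Hoxd1, Hoxd12 and Hoxd13, which flank the well counted Hoxd3 to Hoxd11. Hoxa13, which marks the lowest part of the tract, had no UMI, which allows up to 0.544 CPM in f/f and 1.75 CPM in d/d. Of the Hoxc genes, Hoxc6 (165 and 81 UMIs) and Hoxc8 (35 and 16) were the only members to reach 50. The number of probes per gene is not in the files used here, so levels of different genes were not compared, and a low count of a single gene does not show that it was silent. By the annotation used here, Hoxd3 overlaps Hoxd4 and Hoxc10 overlaps Hoxc5 in exons on the same strand, so the counts of these 4 genes are uncertain where probes lie in shared exons.

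**Figure D1:**
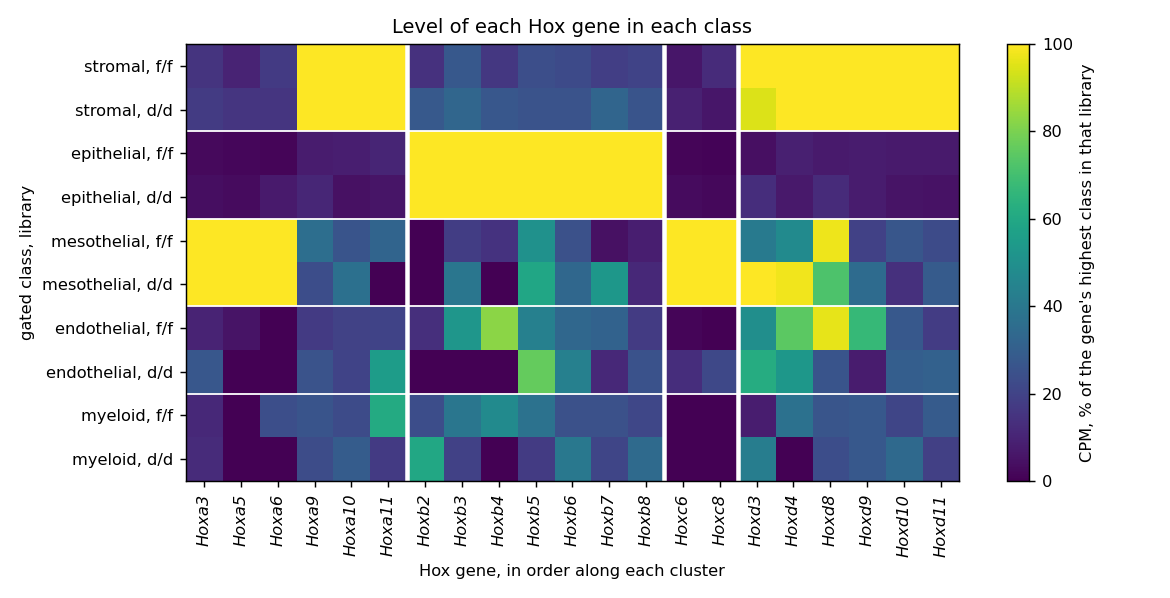
Level of each of the 21 described Hox genes (x axis) in 5 cell classes of the f/f and d/d libraries (y axis), coloured as the percentage of that gene's highest class in the same library. Hoxa9 to Hoxa11 and the Hoxd genes peaked in the stromal rows (except Hoxd3 in d/d, which peaked in the mesothelial one), Hoxb genes in the epithelial rows, and the Hoxc and anterior Hoxa genes in the mesothelial rows.

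The stretch of DNA at the start of 3 genes that stand for the main patterns is given as context, since Hox clusters are rich in CG pairs and Polycomb proteins gather on such CG-rich stretches when they silence a cluster. Sequences are from RefSeq on build GRCm38.p6, run 5′ to 3′ on the gene's strand from 250 bases before to 50 bases after the start, and have CG in capitals. Hoxd10 (chr2:74691641-74691940, plus strand) and Hoxa10 (chr6:52240805-52241104, minus strand) stand for the stromal genes and Hoxb8 (chr11:96281655-96281954, plus strand) for the epithelial ones.
Hoxd10: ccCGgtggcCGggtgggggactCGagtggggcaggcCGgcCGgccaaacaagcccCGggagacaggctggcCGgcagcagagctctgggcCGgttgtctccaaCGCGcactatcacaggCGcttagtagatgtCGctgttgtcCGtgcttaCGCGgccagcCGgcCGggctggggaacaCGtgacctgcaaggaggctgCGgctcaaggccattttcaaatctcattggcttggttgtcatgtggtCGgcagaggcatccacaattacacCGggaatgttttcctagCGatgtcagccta
Hoxa10: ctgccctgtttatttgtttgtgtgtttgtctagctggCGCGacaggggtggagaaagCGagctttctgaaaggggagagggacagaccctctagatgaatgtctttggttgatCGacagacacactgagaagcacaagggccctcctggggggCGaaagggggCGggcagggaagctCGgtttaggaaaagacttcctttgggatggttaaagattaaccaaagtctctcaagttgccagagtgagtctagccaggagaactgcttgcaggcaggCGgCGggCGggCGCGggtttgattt
Hoxb8: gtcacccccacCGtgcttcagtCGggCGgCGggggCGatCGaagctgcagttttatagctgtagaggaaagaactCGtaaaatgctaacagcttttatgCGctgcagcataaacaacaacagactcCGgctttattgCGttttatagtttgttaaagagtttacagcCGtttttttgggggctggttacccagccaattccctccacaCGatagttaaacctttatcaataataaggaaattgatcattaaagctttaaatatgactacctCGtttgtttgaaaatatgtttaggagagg
The Hoxd10 stretch held 22 CG pairs, more than 76.9% of the 32851 promoters in the table, against 12 in Hoxa10 and 13 in Hoxb8. The table held 24 start regions for 22 of the 39 Hox genes, with a median of 14.5 CG pairs against 7 over all promoters. Motifs were searched on both strands. The posterior Hox core TTTATNG occurred 3 times in the Hoxb8 stretch and in 2 of the 24 Hox regions, against 10.9% of all promoters. The Pbx and Hox pair TGATTNAT (3.22% of all promoters) and the homeodomain core TAATTA (5.29%) each occurred in 2 of the 24, and the steroid receptor core ACANNNTGT (6.85%) in none. These are matches of letters only.

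Posterior Hoxa genes and the Hoxd genes from Hoxd3 to Hoxd11 made up most Hox UMIs of the stroma. In the f/f stroma Hoxd10 had 1429 UMIs (1041 CPM of the class, 95% interval 988 to 1096) and Hoxa10, required in stromal cells for decidualization, had 1043 (760 CPM, 714 to 807). In the d/d stroma they had 188 UMIs (676 CPM) and 175 (629 CPM). All intervals given here cover counting error only, since the spread between mice is unknown. Hoxd11 had 721 and 68 stromal UMIs in f/f and d/d (525 and 244 CPM), Hoxd9 had 699 and 93 (509 and 334 CPM) and Hoxa9, known from the oviduct segment, had 454 and 55 (331 and 198 CPM). Hoxd4 had 398 and 53 UMIs (290 and 191 CPM) and Hoxd3, both genes of the anterior end of the cluster, had 363 and 43 (264 and 155 CPM). Hoxa11, the second Hoxa gene needed for implantation, had 169 and 38 UMIs (123 and 137 CPM), and Hoxd8 had 168 and 27 (122 and 97.1 CPM). Hoxa and Hoxd genes together were 84.5% of the stromal Hox UMIs in f/f (6564 in all) and 77.7% in d/d (979 in all). Members of paralog group 10 alone held 37.8% and 37.3% of them. These are shares of UMIs, which also carry the probe number of each gene.

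In the epithelium the Hox UMIs came from the Hoxb cluster, from Hoxb2 to Hoxb8. Hoxb6 had 3542 epithelial UMIs in f/f (1481 CPM, 1433 to 1531) and 999 in d/d (1323 CPM, 1242 to 1407). Hoxb8 had 1449 and 301 UMIs (606 and 399 CPM) and Hoxb5 had 1226 and 298 (513 and 395 CPM). These mid-cluster genes are best known from the trunk, nervous system and blood rather than from the uterus. Hoxb7 had 520 and 166 epithelial UMIs (217 and 220 CPM) and Hoxb3, a gene of hindbrain patterning, had 394 and 90 (165 and 119 CPM). Hoxb4, known from blood stem cells, had 162 and 30 UMIs (67.7 and 39.7 CPM), and Hoxb2 had 110 and 29 (46.0 and 38.4 CPM). Hoxb9 stopped at 1 epithelial UMI in each library. The Hoxb cluster was 90.6% of the 8170 epithelial Hox UMIs in f/f and 92.1% of the 2080 in d/d, and paralog group 6 alone was 43.5% and 48.9%.

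**Figure D2:**
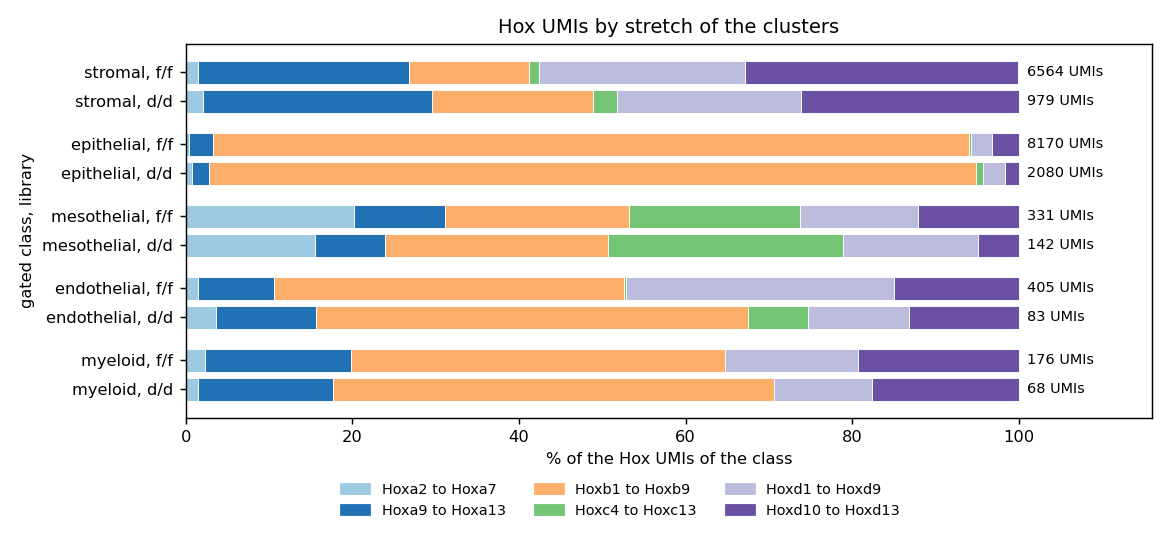
Percentage of the Hox UMIs of each class and library (y axis) that came from 6 stretches of the clusters (colours), with the number of Hox UMIs written for each bar. The Hoxb stretch was 14.3% of the bar in f/f stroma and 90.6% in f/f epithelium, and anterior Hoxa and Hoxc genes took a visible part in the mesothelial bars (20.2% and 20.5% in f/f).

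The split between stroma and epithelium held gene by gene in both libraries. Counted genes were those with at least 50 UMIs over the 2 groups compared, and a gene was called when its CPM differed by more than 2-fold. Among 17 counted Hox genes in f/f, 7 were called higher in the epithelium (14.9% of all counted genes were) and 10 lower (14.8% of all). The 7 were Hoxb2 to Hoxb8, with log2 ratios of epithelium over stroma from 1.87 (Hoxb3) to 2.81 (Hoxb2, interval 1.83 to 3.98). The 10 were Hoxa3, Hoxa9, Hoxa10, Hoxa11 and all 6 described Hoxd genes, from -2.50 (Hoxa3) to -4.55 (Hoxd3). In d/d 5 of 12 counted Hox genes were called higher (15.7% of all counted genes) and 7 lower (7.03% of all). Again the higher ones were Hoxb genes, at 1.59 (Hoxb3) to 1.97 (Hoxb5), and the lower ones Hoxa and Hoxd genes, at -2.87 (Hoxd3) to -4.50 (Hoxa10). The Hoxb sum was 3095 CPM in the f/f epithelium and 685 CPM in the stroma, a log2 ratio of 2.18, and the posterior Hoxd sum (Hoxd10 to Hoxd13) had a ratio of -3.79. Both ratios were larger in size with other class definitions, at 2.73 and -4.27 with a stricter marker gate and 3.00 and -4.17 with unsupervised clusters (Leiden algorithm, Hox genes left out of the clustering).

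Genes that define the other class show how much of its RNA a class holds, as free RNA or in mixed barcodes. In the f/f epithelium the 9 genes from Hoxa9 to Hoxa11 and from Hoxd3 to Hoxd11 stood at 4.27% (Hoxd3) to 10.2% (Hoxa11) of their stromal CPM, with a median of 7.47%. Stromal collagens, which epithelial cells should lack, stood at 7.74% there. In d/d the Hox range was 4.42 to 13.7%, with a median of 6.95%, and the collagens stood at 6.45%. The Hoxa and Hoxd UMIs of the epithelium were thus near the level of the collagens. These collagens were also stromal markers of the gate and the Hox genes were not, so the percentages are not strictly alike. Hoxb genes in the f/f stroma stood at 14.3 to 27.4% of their epithelial CPM, with a median of 20.1%, against 17.3% for the keratins Krt8, Krt18 and Krt19. In d/d the median was 27.2%, against 21.4% for keratins. In the clusters the stromal Hoxb median was 12.7% (f/f) and 16.8% (d/d), with keratins at 7.07% and 8.61%, so stromal Hoxb UMIs stood above the keratin level there. Hoxb6 had 460 stromal UMIs in f/f (335 CPM) and 94 in d/d (338 CPM).

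Single cells showed the same division. Among stromal barcodes with at least 3 UMIs of Hoxa, Hoxb or Hoxd genes, 88.4% in f/f (839 of 949) held more Hoxa and Hoxd than Hoxb UMIs, and 79.5% in d/d (120 of 151) did. Among epithelial barcodes 95.1% in f/f (1234 of 1297) and 94.2% in d/d (324 of 344) held more Hoxb UMIs. Stromal barcodes with more Hoxb UMIs were 9.59% and 14.6%. With each cell thinned to 500 UMIs, which left out 9 of 1419 f/f and 0 of 323 d/d stromal cells, 80.1% of f/f stromal cells (exact interval 77.9 to 82.1) and 66.6% of d/d stromal cells (61.1 to 71.7) held a Hoxa or Hoxd UMI. Without thinning these shares were 90.2% and 76.5%. In myeloid cells the thinned shares were 30.6% and 15.7%, at median depths of 688 and 704.5 UMIs against 756 and 702 in stroma. Epithelial cells were at 10.1% and 7.36%. A Hoxb UMI was found in 75.0% of thinned f/f epithelial cells and 71.4% of d/d ones, in 27.0% and 27.5% of myeloid cells and in 22.7% and 22.9% of stromal cells. Without thinning the epithelial Hoxb shares were 89.1% and 86.05%. The epithelial Hoxa and Hoxd share lay below the myeloid interval in f/f (22.2 to 40.1%) and inside it in d/d (7.02 to 28.6%). The stromal Hoxb shares lay inside the myeloid intervals (19.0 to 36.3% and 15.9 to 41.7%), so no difference from myeloid cells was detectable. Myeloid cells are no clean reference for free RNA. Their Hoxa and Hoxd genes stood at a median of 26.4% (f/f) and 23.7% (d/d) of stroma, against 17.1% and 19.8% for collagens. Whether the epithelial Hoxa and Hoxd UMIs or the stromal Hoxb UMIs were background was not tested on this measure.

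**Figure D3:**
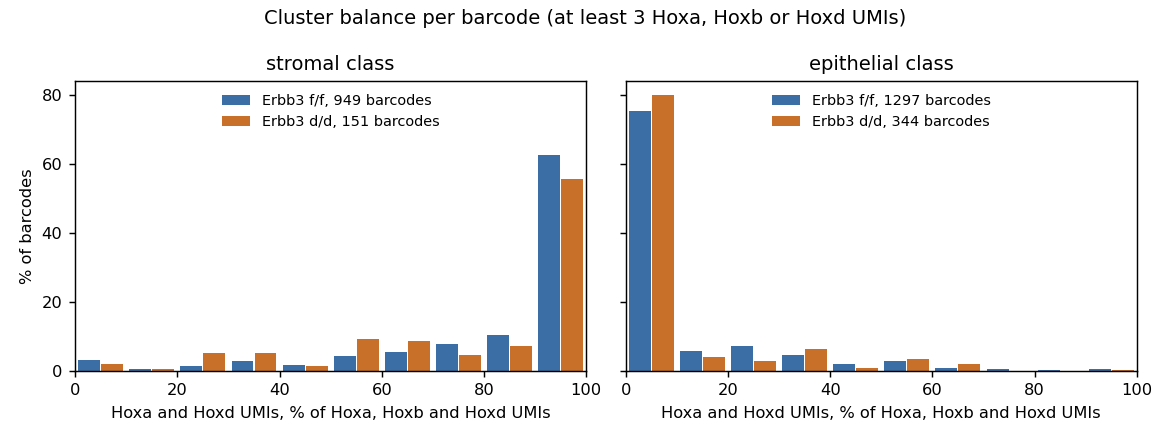
Distribution of barcodes (y axis, % of the barcodes of a class and library in each 10-point bin) by the percentage of their Hoxa, Hoxb and Hoxd UMIs that came from Hoxa and Hoxd (x axis), for stromal and epithelial barcodes with at least 3 such UMIs. Stromal barcodes gathered at the high end (88.4% of f/f barcodes had more Hoxa and Hoxd) and epithelial barcodes at the low end (95.1% of f/f barcodes had more Hoxb).

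The mesothelium, the sheet that covers the outer face of the uterus, differed from the stroma by Hoxc genes and anterior Hoxa genes. Hoxc6, a gene of the thoracic level of the trunk, had 43 mesothelial UMIs in f/f (427 CPM, 309 to 576) against 35 in the far larger stroma (25.5 CPM), and 25 in d/d (582 CPM, 377 to 859) against 15 (53.9 CPM). The log2 ratio was 4.07 (3.39 to 4.75) in f/f and 3.43 (2.45 to 4.46) in d/d. The Hoxc6 UMIs were spread over 36 of 133 mesothelial cells in f/f, with at most 3 in 1 cell, and over 13 of 41 in d/d, with at most 7. In both libraries the mesothelial interval lay above the stromal level.

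Anterior Hoxa genes followed Hoxc6. Hoxa3, which patterns the thymus and parathyroid, had 19 f/f mesothelial UMIs (189 CPM) against 39 stromal ones (28.4 CPM), and 8 in d/d (186 CPM) against 9 (32.4 CPM). The log2 ratios were 2.73 (1.86 to 3.56) and 2.53 (0.95 to 4.07). Hoxa5, a gene of lung development, had 12 and 4 mesothelial UMIs (119 and 93.1 CPM), and Hoxa6 had 9 and 4. Hoxa2, Hoxa4 and Hoxa7 stayed under 50 UMIs in all, with 10, 6 and 11 f/f mesothelial UMIs and 1, 2 and 3 in d/d. The sum of Hoxa2 to Hoxa7 was 666 CPM in the f/f mesothelium against 70.7 in the stroma, and 512 against 75.5 CPM in d/d, log2 ratios of 3.24 and 2.76. Hoxc8 and Hoxc10 had 9 f/f mesothelial UMIs each (89.5 CPM), against 15 and 11 in the stroma. The sum of Hoxc4 to Hoxc13 was 676 against 56.8 CPM in f/f and 931 against 104 CPM in d/d, log2 ratios of 3.57 (3.08 to 4.06) and 3.16 (2.43 to 3.90). In d/d a single cell could hold much of such a sum, with at most 14 of the 40 Hoxc UMIs, 7 of the 22 UMIs of Hoxa2 to Hoxa7 and 30 of all 142 mesothelial Hox UMIs in 1 cell, against at most 3, 4 and 10 in 1 f/f cell.

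Posterior Hoxa and Hoxd genes went the other way in the mesothelium, unlike Hoxc10. Hoxd10 had 28 f/f and 4 d/d mesothelial UMIs (278 and 93.1 CPM), log2 ratios over stroma of -1.90 and -2.86, and Hoxa10 had 20 and 10 UMIs (199 and 233 CPM), at -1.93 and -1.43. Hoxd9 and Hoxd11 stood at -2.36 and -2.14 in f/f, whereas Hoxd8 did not differ from stroma beyond its interval (-0.04, -1.02 to 0.81). Collagens were at 54.1% of their stromal CPM in the f/f mesothelium. The genes from Hoxa9 to Hoxa11 and from Hoxd9 to Hoxd11 lay below that, from 19.5% (Hoxd9) to 36.1% (Hoxa9). Collagens are also made outside the stroma, so their level does not measure stromal RNA in these cells. Whether the mesothelial UMIs of these Hox genes were background was not tested. Among 16 counted Hox genes in f/f, 3 were called higher in the mesothelium (9.29% of all counted genes), namely Hoxa3, Hoxb5 and Hoxc6, and 10 lower (20.2% of all). In d/d 0 of 8 were called higher (6.1% of all) and 5 lower (16.8% of all), and Hoxc6 fell short of the 50 UMIs there with 40 over the 2 classes. Unsupervised clusters placed 375 f/f and 194 d/d barcodes in the mesothelium, and Hoxc6 then had 130 and 58 UMIs (360 and 326 CPM) against 10 and 0 in the stromal clusters. The Hoxc ratio in d/d was 5.34 with those clusters, over 1.5 times the value above, and 5 and 3 Hox genes were called higher in f/f and d/d. Other settings lowered the count in f/f, to 1 with the stricter gate, 1 without barcodes that held a collagen UMI and 1 with at most 2% mitochondrial UMIs. In d/d the last of these brought the Hoxa2 to Hoxa7 ratio to 1.11 (-4.42 to 4.15), on 1 mesothelial UMI.

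With cells thinned to 500 UMIs, 39.4% of f/f mesothelial cells (31.0 to 48.3) and 31.7% of d/d ones (18.1 to 48.1) held a UMI of Hoxa2 to Hoxa7 or of a Hoxc gene. The same share was 5.89% and 8.05% in stromal, 0.864% and 1.94% in epithelial, 1.80% and 1.96% in myeloid, 3.18% and 8.51% in endothelial and 5.77% and 21.4% in smooth muscle or pericyte cells. Without thinning the mesothelial shares were 54.9% and 58.5%, at median depths of 639 and 737 UMIs. The other shares lay below the mesothelial interval of their library, except that of the 14 d/d smooth muscle or pericyte cells (3 cells, 4.66 to 50.8%), which lay inside it.

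In f/f endothelial cells the Hoxd genes from Hoxd3 to Hoxd9 stood nearer to their stromal levels than Hoxd10, Hoxd11, Hoxa9 and Hoxa10 did, and this order did not hold in d/d. In f/f Hoxd8 stood at 96.3% of its stromal CPM (19 UMIs, 118 CPM), Hoxd4 at 74.9% (35 UMIs, 217 CPM), Hoxd9 at 67.0% (55 UMIs, 341 CPM) and Hoxd3 at 49.3% (21 UMIs, 130 CPM). Hoxd10 stood at 27.4% (46 UMIs, 285 CPM), Hoxa10 at 19.6% (24 UMIs), Hoxd11 at 17.7% (15 UMIs) and Hoxa9 at 16.9% (9 UMIs). At most 36 of the 405 Hox UMIs of these cells lay in 1 cell. Collagens were at 25.7% of their stromal CPM, but 1 cell held 71 of their UMIs, and the level without it was not computed. Against 25.7%, the first group lay above, Hoxd10 was close, and Hoxa10, Hoxd11 and Hoxa9 lay below. For the neighbours Hoxd9 and Hoxd10 the intervals of these shares did not overlap, that of Hoxd9 beginning at 50.0% and that of Hoxd10 ending at 36.8%. In the 47 d/d cells Hoxd3 (4 UMIs) and Hoxd4 (4 UMIs) stood at 65.1% and 52.8% of stroma, but Hoxd8 (1 UMI) at 25.9% and Hoxd9 (1 UMI) at 7.53%. These lay below Hoxd11 (30.9%, 3 UMIs) and Hoxd10 (29.8%, 8 UMIs), and Hoxd10, Hoxd11, Hoxa9 (25.4%) and Hoxa10 (5 UMIs) were all above the d/d collagens at 17.3%. Of 14 counted Hox genes in f/f, 0 were called higher than in stroma (6.74% of all counted genes) and 6 lower (14.1% of all). In d/d 0 of 7 were called higher (5.73% of all) and 5 lower (18.3% of all). Hoxb genes had 170 f/f endothelial UMIs (1054 CPM), a log2 ratio over stroma of 0.62 (0.38 to 0.86). Their members stood at a median of 33.5% of epithelium in f/f, against 14.8% for keratins. In d/d, with 43 Hoxb UMIs and 0 for Hoxb2, Hoxb3 and Hoxb4, the median was 11.4%, against 14.7% for keratins. With the clusters the d/d median was 42.9%, against 26.9% for keratins, so the d/d order depended on how cells were placed. Hoxb4 had 9 f/f endothelial UMIs (55.8 CPM) against 15 stromal ones (10.9 CPM), at 2.35 (0.98 to 3.64), but 0 d/d endothelial UMIs.

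**Figure D4:**
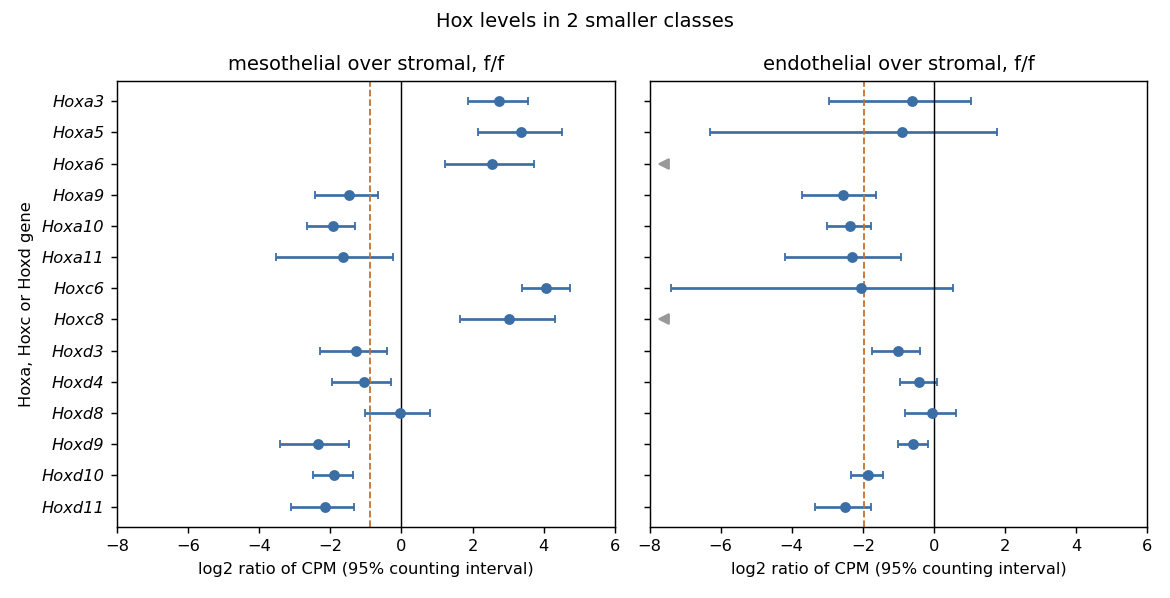
Log2 ratio of CPM over stroma in the f/f library (x axis) for described Hox genes (y axis) in mesothelial and endothelial cells, with 95% counting intervals as bars, the stromal collagens as a dashed line and genes with 0 UMIs as grey arrowheads. Hoxc6 and the anterior Hoxa genes lie to the right in mesothelial cells (Hoxc6 at 4.07), and Hoxd8, Hoxd4 and Hoxd9 lie to the right of the collagens in endothelial cells.

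The d/d and f/f libraries were then compared within each class. In the stroma Hoxa9, Hoxa10 and the Hoxd genes other than Hoxd8 had intervals below 0 for d/d over f/f, of which only Hoxd11 passed 2-fold, while Hoxd8, Hoxa11 and most Hoxb genes were not separated from 0 by their intervals. Hoxd11 had 244 CPM in d/d and 525 in f/f, a log2 ratio of -1.10 (-1.48 to -0.74). Hoxd3 stood at -0.77 (-1.27 to -0.32), Hoxa9 at -0.74 (-1.17 to -0.34), Hoxd10 at -0.62 (-0.85 to -0.40), and Hoxd4 and Hoxd9 at -0.61 each. Hoxa10, the best known decidualization gene of the family, was nearer to 0 at -0.27 (-0.51 to -0.04). Its interval included the all-gene median of -0.08. Hoxd8 stood at -0.33 (-0.98 to 0.26) and Hoxa11 at 0.15 (-0.40 to 0.66). Summed, Hoxd10 to Hoxd13 were at -0.77 (-0.96 to -0.58), Hoxd1 to Hoxd9 at -0.61, Hoxa9 to Hoxa13 at -0.33 and the Hoxb cluster at -0.01 (-0.24 to 0.22). Of 15 counted Hox genes 1 was called lower, Hoxd11 (4.92% of all 7415 counted genes), and 1 higher, Hoxc6 (2.35% of all). The counted Hox genes other than Hoxd11 and Hoxc6 lay within 2-fold, and the median of the 15 was -0.29, against -0.08 for all genes.

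Hoxc6 rested on 15 d/d and 35 f/f stromal UMIs (1.08, 0.10 to 1.99), exactly the 50 UMIs needed. With the stromal clusters it had 10 f/f UMIs and 0 in d/d, so its call depends on the gate. Hoxb7, at 0.84 (0.03 to 1.61), also pointed up, on 20 and 55 UMIs. The stricter gate and the clusters brought Hoxd11 to -0.88 and -0.97, inside 2-fold, with intervals still below 0. The d/d stroma had the higher mitochondrial share, and keratins were at 367 CPM there against 245 CPM in f/f (log2 ratio 0.58), while collagens were at 0.11. Among stromal barcodes with at most 2% mitochondrial UMIs (891 and 145), whose median shares were 0.542% and 0.565%, the posterior Hoxd sum was at -0.85, Hoxd1 to Hoxd9 at -0.75 and Hoxa9 to Hoxa13 at -0.60. Hoxd11 was at -0.98 there and Hoxd3 at -1.19. The unsupervised clusters placed 73.8% of the f/f and 54.8% of the d/d stromal cells in their stromal cluster, and 5.29% and 14.6% in the mesothelial one. Within the stromal cluster (1047 and 177 cells) the posterior Hoxd sum was at -0.68 (-0.92 to -0.45), Hoxd1 to Hoxd9 at -0.41 (-0.66 to -0.16) and Hoxa9 to Hoxa13 at -0.25 (-0.49 to -0.02). Less RNA of these genes per cell and fewer cells that express them cannot be told apart in such sums.

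**Figure D5:**
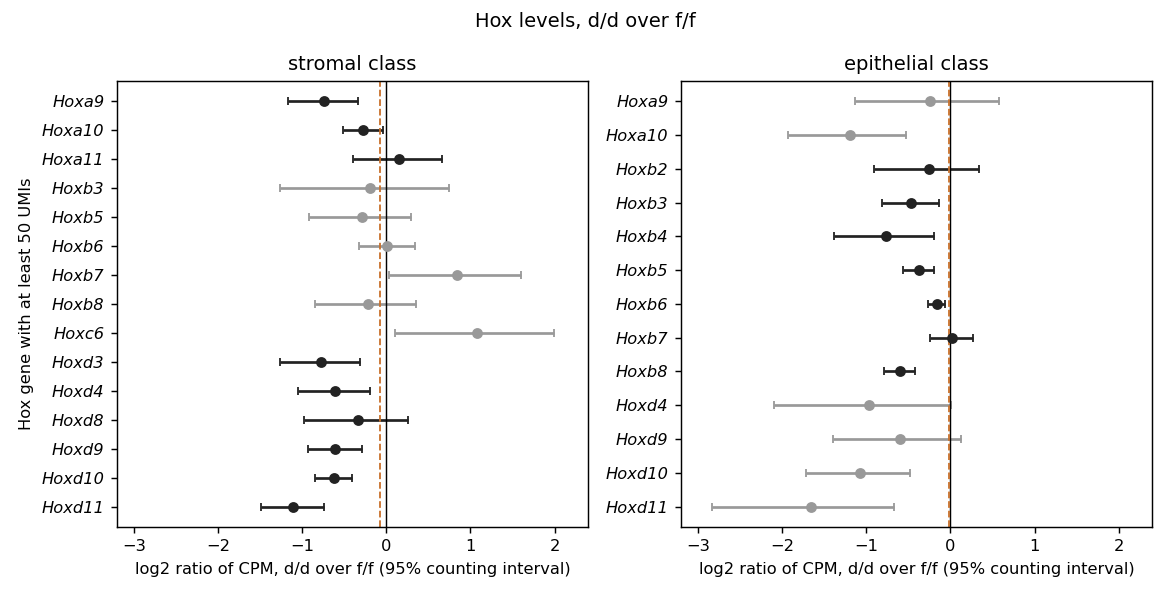
Log2 ratio of CPM in the d/d over the f/f library (x axis) for each counted Hox gene (y axis) in stromal and epithelial cells, with 95% counting intervals as bars and the median of all counted genes as a dashed line. Black points are Hoxa and Hoxd genes in the stroma and Hoxb genes in the epithelium, grey points the other members. In the stroma Hoxd11 lies farthest to the left (-1.10), and in the epithelium the black points run from -0.77 (Hoxb4) to 0.02 (Hoxb7).

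In the epithelium 5 of the 7 Hoxb genes had intervals below the all-gene median of -0.02, all within 2-fold. Hoxb4 was at -0.77 (-1.38 to -0.20), Hoxb8 at -0.60 (-0.79 to -0.42), Hoxb3 at -0.47 (-0.81 to -0.13) and Hoxb5 at -0.38 (-0.56 to -0.19). Hoxb6, the gene with most epithelial Hox UMIs, was at -0.16 (-0.27 to -0.06), Hoxb2 at -0.26 (-0.90 to 0.34) and Hoxb7 at 0.02. The Hoxb8 intervals in CPM, 575 to 638 in f/f and 355 to 446 in d/d, did not overlap. Of 13 counted Hox genes 0 were called higher (5.43% of all counted genes) and 3 lower (5.44% of all), with a median of -0.60. The 3 were Hoxd11 (-1.66), Hoxa10 (-1.19) and Hoxd10 (-1.07), all at the collagen level in these cells. Epithelial keratins were at 0.27 and the median mitochondrial shares were 0.455% and 0.535%.

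The epithelial class was made up differently in the 2 libraries. Unsupervised cluster 2, led by proliferation genes such as Top2a, held 17.7% of the f/f and 58.1% of the d/d epithelial cells, while cluster 4, led by genes that include Slc5a11 and Lrp2, held 26.4% and 0.775% and cluster 3 held 18.9% and 3.62%. Cluster 1, led by secretory genes such as Ltf, held 28.7% and 24.5%. The Hoxb sum stood at -0.29 (-0.36 to -0.22) for d/d over f/f in the whole class. Within single clusters it was at -0.29 (-0.46 to -0.13) in cluster 1, -0.38 (-0.49 to -0.28) in cluster 2 and -0.31 (-0.77 to 0.12) in cluster 3, where 28 d/d cells were left, and cluster 4 held too few d/d cells (6). Hoxb8 was at -0.68 (-1.13 to -0.26) in cluster 1 and -0.46 (-0.72 to -0.20) in cluster 2. Hoxb6 was at -0.06 (-0.28 to 0.17) and -0.37 (-0.52 to -0.23). Hoxd10 did not stay lower, at 0.15 (-1.66 to 1.66, 5 d/d UMIs) in cluster 1 and -0.01 (-1.06 to 1.03, 16 d/d UMIs) in cluster 2. Hoxd11 stayed lower, at -1.18 (-6.65 to 1.72, 1 d/d UMI) in cluster 1 and -2.08 (-4.51 to -0.26, 3 d/d UMIs) in cluster 2. Hoxa10 was at -2.26 (-7.65 to 0.41, 1 d/d UMI) and -0.81 (-1.84 to 0.16, 14 d/d UMIs), with both intervals including 0.

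In the small classes few Hox genes could be compared between libraries. In the mesothelium 0 of 2 counted Hox genes were called higher (4% of all counted genes) or lower (4.53% of all), and Hoxc6 was at 0.45 (-0.33 to 1.19), at median mitochondrial shares of 0.875% (f/f) and 5.61% (d/d). In the endothelium Hoxd9 had 55 UMIs in 44 of 158 f/f cells and 1 UMI in 47 d/d cells (341 and 25.2 CPM), a log2 ratio of -3.76 (-9.09 to -1.22). It was the 1 of 3 counted Hox genes called lower (7.63% of all counted genes), and 0 were called higher (2.14% of all). Hoxd10, its neighbour, had 46 and 8 UMIs (-0.50), and Hoxd1 to Hoxd9 together had 130 and 10 UMIs, at -1.68 (-2.77 to -0.76). With the clusters, endothelial Hoxd9 had 76 UMIs in f/f (292 CPM) and 3 in d/d (48.5 CPM). The median mitochondrial share of endothelial cells was 1.95% (f/f) and 4.80% (d/d), and its part in this difference was not tested.

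Subsets within the stroma and the epithelium were compared for their Hox genes. Stromal cells with Col6a4 or Adam12 were set against those with Pth1r or Scube1 in f/f, and 0 of 12 counted Hox genes were called higher or lower (0.494% of all counted genes each way), with a Hox median of -0.24. The largest difference was Hoxb5, at -0.67 (27 against 53 UMIs), and among Hoxa and Hoxd genes it was Hoxd3, at -0.59 (49 against 91). The lower posterior Hoxd sum of the d/d library appeared in both subsets, at -0.96 (-1.37 to -0.57, 62 against 376 UMIs) in Col6a4 or Adam12 cells and at -0.94 (-1.73 to -0.25, 17 against 531 UMIs) in Pth1r or Scube1 cells. In the first, 0 of 8 counted Hox genes were called higher (1.87% of all) and 1 lower (6.26% of all), which was Hoxd11 at -1.09. In Pth1r or Scube1 cells, of which the d/d library had 24, 1 of 9 was called higher (6.12% of all), Hoxb6 on 14 d/d UMIs (1.35, 0.43 to 2.18). There 3 were called lower (19.6% of all), namely Hoxa9 (1 d/d UMI), Hoxd9 (6) and Hoxd11 (3), and the median was -0.67 against -0.15 for all genes. Keratins were at 1.24 (0.11 to 2.20) in these cells, and their part in the Hoxb6 value was not tested.

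Epithelial cells with glandular markers had nearly the same Hoxb level as those without in f/f, with Hoxb6 at -0.21, Hoxb8 at -0.06 and the cluster at -0.15. Of 12 counted Hox genes 1 was called higher in the glandular cells (3.64% of all counted genes) and 0 lower (5.23% of all). The 1 was Hoxd11, with 26 against 52 UMIs (73.1 and 30.6 CPM, log2 ratio 1.25), a gene at the collagen level in the epithelium as a whole. Epithelial cells with proliferation genes had Hoxb6 at 0.26 (0.16 to 0.37) relative to those without, and 0 of 12 counted Hox genes were called higher (5.02% of all) or lower (1.77% of all). Cells with Muc4 or Ptpn22 had 0 Hoxb2 UMIs against 62 in cells with Lrp2 or Slc5a11, the 1 gene called lower of 9 counted (8.74% of all), with 0 called higher (3.58% of all). The median of the 9 was -0.62, against -0.04 for all genes, and Hoxb5 stood at -0.62 (-1.15 to -0.13), Hoxb6 at -0.26 and Hoxb8 at -0.12.

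For d/d over f/f, Hoxb8 stood below 0 in each epithelial subset, though not beyond its interval in 2 of 6. These subsets overlap, since each split was made on the same epithelial cells, so they are not separate checks. It was at -0.95 (-1.65 to -0.32) in Lrp2 or Slc5a11 cells, -0.68 (-1.05 to -0.34) in cells with no proliferation gene, -0.60 (-0.80 to -0.40) in cells with no glandular marker and -0.55 (-0.80 to -0.30) in proliferating cells. Muc4 or Ptpn22 cells (-0.41, -0.93 to 0.12) and cells with glandular markers (-0.20, -1.09 to 0.58) were the other 2. In Lrp2 or Slc5a11 cells (1044 from f/f, 62 from d/d) 0 of 9 counted Hox genes were called higher (4.88% of all) and 3 lower (13.1% of all), with a median of -0.89 against -0.06 for all genes. The 3 were Hoxb4 (1 d/d UMI), Hoxa10 (1) and Hoxd10 (2), and all their intervals included 0.

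Hox proteins bind DNA together with TALE homeodomain cofactors, the Pbx, Meis and Pknox proteins, and 9 such genes were looked at alongside. For epithelium over stroma in f/f, 0 of 8 counted cofactors were past 2-fold higher (14.9% of all counted genes) and 5 lower (14.8% of all), with a median of -1.19 against -0.03 for all genes. Meis3 had 186 CPM in the stroma and 28.8 in the epithelium. Meis1 leaned to the epithelium within 2-fold (412 against 223 CPM, log2 ratio 0.89, 0.70 to 1.08), and Meis2 was highest in the endothelium (1520 CPM, against 324 in the stroma and 76.5 in the epithelium). Between libraries, 0 of 7 counted cofactors were past 2-fold either way in the stroma (2.35% of all counted genes higher and 4.92% lower), with a median of -0.24. In the epithelium 1 of 7 was higher (5.43% of all) and 1 lower (5.44% of all), with a median of -0.18. The higher one was Meis1, with 638 d/d and 986 f/f UMIs (845 and 412 CPM, log2 ratio 1.04, 0.89 to 1.18). The lower one was Pknox2, with 44 and 541 UMIs (58.3 and 226 CPM, -1.96, -2.43 to -1.51).

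Polycomb and trithorax proteins keep Hox clusters silent or active in a cell's descendants. For d/d over f/f the median was -0.40 over the 14 of 17 such genes counted in the stroma, against -0.08 for all genes, and -0.14 over all 17 in the epithelium, against -0.02. Of 23 uterine and Mullerian genes known to act with or under Hox genes, 17 were counted in the stroma, with 1 higher (2.35% of all counted genes), 1 lower (4.92% of all) and a median of -0.13, so both counts were near those shares. The higher was Wnt4, a signal of decidualization, with 18 and 33 UMIs (1.43), and the lower was Ptger4, a prostaglandin receptor, with 10 and 113 UMIs (-1.20). In the epithelium 16 were counted, with 0 lower (5.44% of all) and 1 higher (5.43% of all). The higher was Wnt7a, an epithelial signal that maintains Hoxa10 and Hoxa11 in the stroma, with 234 and 264 UMIs (310 and 110 CPM, 1.49, 1.23 to 1.75). Wnt7a was also an epithelial marker of the gate, so its own UMIs helped to place cells in this class. How far this moved its ratio was not tested.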

How the data were processed

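Single-cell RNA was measured in 2 libraries, 1 per genotype. The authors deposited raw counts of UMIs for each gene in each barcode. Per the file headers these came from Cell Ranger 9.0.0, and the submitters' processing notes name the builds mm10 and GRCm39 without their roles. Barcodes with at least 200 genes and at most 10% mitochondrial UMIs were kept, and no doublet caller was run. A barcode entered a class with at least 2 UMIs from at least 2 of its markers and at least 60% of all its marker UMIs. Counts were summed per class and library and scaled to CPM. Sums have exact Poisson, shares Clopper-Pearson and ratios conditional binomial intervals at 95%, tested on simulated counts. Genes with at least 50 UMIs were counted and called past 2-fold, and a count of 0 was taken to allow 3. Named genes were Hox members with at least 50 UMIs and, of 3 further lists, members past 2-fold with an interval off 0. A few genes of these lists are not reported here. Members, lists and comparisons were chosen with earlier results of these data known.

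Alternatives were a stricter gate (3 UMIs, 80%), Leiden clusters (scanpy 1.11.5, leidenalg 0.10.2), all barcodes, at least 500 genes, no top 5% of barcodes by UMIs (against doublets), edgeR 4.0.16 TMM scaling, CPM without mitochondrial and the 50 most abundant genes, other UMI minimums, other thinning and, for d/d over f/f, single clusters named for the class with at least 20 of its cells per library. Python 3.11.15, numpy 2.4.6, scipy 1.17.1 and matplotlib 3.10.9 were used.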

Additional observations from a re-analysis of the deposited data

Results flagged for a closer look

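Hox UMIs also lay in barcodes that entered no comparison. The barcodes left out by the filter (280 and 295) held 2702 Hox UMIs in f/f, of which 1933 were Hoxb and 740 Hoxa or Hoxd, and 1863 in d/d, of which 1277 were Hoxb and 542 Hoxa or Hoxd. Barcodes that passed the filter but were placed in no class (1414 and 573) held 4478 (f/f) and 1323 (d/d) Hox UMIs. These signals were picked out because they stand in data that the comparisons above did not use. Among ungated barcodes with at least 3 UMIs of Hoxa, Hoxb or Hoxd genes, 67.9% in f/f (477 of 702) and 72.3% in d/d (138 of 191) held more Hoxb UMIs.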

How the results depend on the processing

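Each genotype had 1 library, so no library could be left out. No paired analysis was possible because each genotype had 1 library. Of the recomputed sums, calls and shares 278 stayed within counting error or within 1.5 times of the reported value and 90 moved. Of the values of single genes 817 stayed, 117 moved and 4 changed sign. Mesothelial over stromal Hoxb8 in f/f was at -1.29 as reported and 1.30 with Leiden clusters. For d/d over f/f in the epithelium, Hoxd10 was at 0.15 within cluster 1, and within cluster 3 Hoxb3 was at 8.0e-05 and Hoxb4 at 0.81, on 4 and 3 d/d UMIs. The cause was not tested. At-most-2% mitochondrial cells, non-stromal classes without any collagen UMI and the values within single clusters were chosen after seeing the data. TMM factors moved the median of all genes by over 0.1 for epithelium over stroma (0.13 for f/f, 0.10 for d/d) and for mesothelium over stroma in d/d (-0.13). The other limit is depth, since 12 mesothelial and 14 endothelial d/d cells remained with at most 2% mitochondrial UMIs.

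Ratios of epithelium over stroma kept their direction. For the Hoxb cluster in f/f, log2 ratios of 2.73 (stricter gate), 3.00 (Leiden clusters), 1.99 (all deposited barcodes), 2.31 (TMM scaling) and 2.29 (mitochondrial share at most 2%) stood against 2.18, and in d/d 2.30, 2.76 and 1.54 under the first 3 of these against 1.90. For Hoxa9 to Hoxa13 in f/f they were -4.08 (stricter gate), -4.00 (clusters), -3.83 (all barcodes), -3.89 (no top 5% of barcodes), -4.59 (no collagen UMI) and -3.97 (at most 2%), and in d/d -4.88 (stricter gate), -4.73 (clusters) and -5.05 (no collagen UMI). For Hoxd1 to Hoxd9, in the same order, f/f values were -4.58, -4.22, -4.04, -4.15, -5.02 and -4.26, and d/d values were -4.35 (stricter gate), -4.22 (clusters), -3.95 (all barcodes) and -4.49 (no collagen UMI). For Hoxd10 to Hoxd13 in f/f they were -4.27 (stricter gate), -4.17 (clusters), -4.05 (all barcodes), -5.05 (no collagen UMI) and -4.19 (at most 2%), and in d/d -4.84 (stricter gate) and -6.17 (no collagen UMI). The number of Hox genes called lower in d/d was 3 with the stricter gate and 3 with at most 2%, against 7.

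For mesothelium over stroma, Hoxa2 to Hoxa7 were at 2.67 (no collagen UMI) and 2.70 (at most 2%) in f/f, and at 3.97 (stricter gate) and 1.11 (at most 2%) in d/d. Hoxc4 to Hoxc13 were at 4.14 (clusters) and 4.10 (no collagen UMI) in f/f and 5.34 (clusters) in d/d. In f/f 1 Hox gene was called higher with the stricter gate, 5 with clusters, 1 without collagen UMIs and 1 with at most 2%. In d/d 3 were called higher with clusters and 1 with at most 2%, and 3 lower with the stricter gate and 2 with at most 2%.

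For endothelium over stroma, Hoxd1 to Hoxd9 were at -1.01 (clusters) and -1.09 (no collagen UMI) in f/f and -2.98 (no collagen UMI) in d/d. Hoxd10 to Hoxd13 were at -2.53 (no collagen UMI) and -2.48 (at most 2%) in f/f and -3.19 (at most 2%) in d/d. Hoxa9 to Hoxa13 were at -3.12 (stricter gate), -3.75 (no collagen UMI) and -3.05 (at most 2%) in f/f, and at -4.27, -3.30 and -3.15 in d/d.

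For d/d over f/f, stromal Hoxa9 to Hoxa13 were at -0.60 and all stromal Hox genes at -0.58 with at most 2%, and with all deposited barcodes the epithelial Hoxb cluster was at -0.53 and all epithelial Hox genes at -0.55. The Hoxb cluster was at -0.38 within cluster 2 and all epithelial Hox genes at -0.50 within cluster 3. In the mesothelium, where the reported intervals include 0, Hoxc4 to Hoxc13 were at -1.17 with at most 2%, and Hoxa2 to Hoxa7 at 0.99 without collagen UMIs and at -2.20 with at most 2%. The 1 stromal Hox gene called higher, Hoxc6, held exactly 50 UMIs, and 0 were called higher with the stricter gate, clusters, all barcodes, at least 500 genes, no top 5%, at most 2% or a minimum of 100 UMIs. The 1 called lower was 0 with the stricter gate and with clusters. In the epithelium 1 was called higher with a minimum of 20 UMIs.

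Shares of stromal cells with a Hoxa or Hoxd UMI were 90.2% (f/f) and 76.5% (d/d) without thinning and 88.01% and 80% when thinned to 1000 UMIs, and epithelial Hoxb shares were 89.1% and 86.05%, and 92.6% and 90.3%. Some single-gene values could not be computed because 1 side held no UMI.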
